A study of Mus musculus with 4 samples.

Results

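MHC class I chains are the heavy chains that pair with the light chain β2-microglobulin and carry peptides or small molecules to the cell surface. The set described here was chosen by symbol. It holds the classical genes H2-K1 and H2-D1, the nonclassical genes H2-Q4, H2-Q6, H2-Q7, H2-T22, H2-T23 and H2-M3, and the class I-like genes Cd1d1 and Mr1. All 10 symbols had a row, of 18256 rows in each count file, and all 10 passed the filter on low counts. RNA was measured in 4 libraries of wild-type (WT) mouse macrophages, grown from bone marrow over 7 days with 20 ng/ml of the growth factor MCSF, and stimulated or not from day 6. The 2 libraries named M0 came from unstimulated cells, which stayed in MCSF alone. The 2 libraries named M1 came from cells given 20 ng/ml interferon-gamma (IFN-γ) and 100 ng/ml lipopolysaccharide (LPS), a bacterial cell wall component, for the last 24 h, with no word in the labels on whether MCSF stayed in their medium. No strain is named. Nothing in the labels ties replicates to different mice or dishes, so the error terms below cover the spread between libraries and may be technical.

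Classical class I molecules show peptides from the cell's own proteins to cytotoxic T cells. The nonclassical chains of the Q, T and M series have narrower roles, such as showing signal peptides to natural killer cell receptors or formylated bacterial peptides to T cells. CD1d presents lipids to natural killer T cells, and MR1 presents metabolites of vitamin B synthesis to mucosal-associated invariant T cells. Interferon-gamma is a known inducer of class I genes through IRF1 and the coactivator NLRC5, and NF-κB acts at an upstream enhancer of the classical genes.

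The promoters are shown first because the members differ in which known class I motifs they hold. Windows of 300 bases, from 250 before to 50 after the RefSeq transcript start (GRCm38.p6, the assembly that mm10 names), were matched for 9 of the 10 genes and not for Cd1d1. H2-K1 had 2 RefSeq entries, and its window is that of the entry whose start matches the gene start in the GENCODE M21 annotation. The other entry was not scanned, so the matches of H2-K1 below hold for the chosen start only. The windows of the classical pair, of the gene with the largest rise, of a T-series and an M-series gene, and of Mr1 are printed 5′ to 3′ on the strand of the gene. Capitals mark matches on either strand to one of 4 kinds of pattern, which were chosen after these promoters had been read: a kB pattern (GGGNNTTCC, of the kind bound by NF-κB), an ISRE pattern (GAANNGAAA, or GAAA and GAAA with any 2 bases between, of the kind bound by interferon regulatory factors), an X2 pattern (TGNTGAC) and the CCAAT box. No 2 of these matches overlapped in the printed windows.
H2-K1 (chr17:34000298-34000597, minus strand): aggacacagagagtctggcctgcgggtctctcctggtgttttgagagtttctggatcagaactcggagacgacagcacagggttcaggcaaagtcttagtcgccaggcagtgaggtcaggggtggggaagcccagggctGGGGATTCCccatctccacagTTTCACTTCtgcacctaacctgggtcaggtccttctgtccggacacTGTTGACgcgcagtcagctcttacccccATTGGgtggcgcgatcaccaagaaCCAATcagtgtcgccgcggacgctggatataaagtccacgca
H2-D1 (chr17:35262844-35263143, plus strand): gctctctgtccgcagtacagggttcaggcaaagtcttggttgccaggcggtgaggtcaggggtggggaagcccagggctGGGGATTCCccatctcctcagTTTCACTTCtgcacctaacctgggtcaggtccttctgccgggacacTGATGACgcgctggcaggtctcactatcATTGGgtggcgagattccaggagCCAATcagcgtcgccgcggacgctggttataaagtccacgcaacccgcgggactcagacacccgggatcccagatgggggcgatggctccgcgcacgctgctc
H2-Q7 (chr17:35438905-35439204, plus strand): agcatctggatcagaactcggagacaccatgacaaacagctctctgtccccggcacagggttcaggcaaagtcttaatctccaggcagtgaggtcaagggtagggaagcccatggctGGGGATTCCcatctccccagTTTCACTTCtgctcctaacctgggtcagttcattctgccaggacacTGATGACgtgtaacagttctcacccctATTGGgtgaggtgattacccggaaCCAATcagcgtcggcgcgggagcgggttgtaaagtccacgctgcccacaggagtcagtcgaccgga
H2-T22 (chr17:36042693-36042992, minus strand): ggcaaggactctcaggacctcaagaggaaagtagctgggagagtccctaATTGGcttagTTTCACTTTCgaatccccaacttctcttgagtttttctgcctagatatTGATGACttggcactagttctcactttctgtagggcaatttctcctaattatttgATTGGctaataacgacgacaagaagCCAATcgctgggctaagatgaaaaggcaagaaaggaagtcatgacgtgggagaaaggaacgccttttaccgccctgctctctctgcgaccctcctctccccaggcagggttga
H2-M3 (chr17:37269984-37270283, plus strand): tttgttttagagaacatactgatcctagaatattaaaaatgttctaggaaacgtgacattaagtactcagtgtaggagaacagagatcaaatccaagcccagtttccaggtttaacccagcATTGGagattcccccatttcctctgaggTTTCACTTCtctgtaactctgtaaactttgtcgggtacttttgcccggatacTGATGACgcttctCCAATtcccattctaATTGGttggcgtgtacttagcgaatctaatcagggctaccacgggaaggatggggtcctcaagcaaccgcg
Mr1 (chr1:155146765-155147064, minus strand): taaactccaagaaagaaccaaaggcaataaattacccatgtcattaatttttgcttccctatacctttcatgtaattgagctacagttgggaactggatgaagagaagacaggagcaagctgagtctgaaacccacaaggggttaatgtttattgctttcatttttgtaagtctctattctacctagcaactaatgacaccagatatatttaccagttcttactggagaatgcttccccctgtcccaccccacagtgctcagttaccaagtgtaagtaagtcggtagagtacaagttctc

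All 4 kinds of pattern were present in the windows of H2-K1, H2-D1, H2-Q4, H2-Q6 and H2-Q7, in the same order and almost the same spacing. From the first base of the kB match to that of the ISRE match lay 20 or 21 bases in these 5 genes, and from the ISRE match to the X2 match 46 bases in each. From the X2 match to the reversed CCAAT box lay 27 or 28 bases, and to the forward CCAAT box 51 or 52. H2-T22 held an ISRE match 48 bases before its X2 match and no kB match, and H2-M3 held these 52 bases apart, also with no kB match. H2-T23 held an ISRE match at 124 bases before the start, an X2 match on the opposite strand at 19 bases before it and a single CCAAT box. The window of Mr1 held none of the patterns. Among 27025 RefSeq promoter windows of the same length, 1 a gene, the kB pattern was in 5.71%, the shorter ISRE pattern in 7.55%, the longer in 3.48%, the X2 pattern in 14.2% and CCAAT in 38%. All 4 kinds were in 16 windows (0.0592%), 5 of them those of the members named. The patterns were chosen after the member promoters had been read, so their matches there are not independent of that choice. Of the other genes with such a window, 7 had a row in the count files. In M1 4 of these rose, namely H2-M2, Apol9a, Apol9b and Oas3, and Rab11b fell, while Dpm1 and Mocs3 did not pass the test. Among all genes tested 24.2% rose and 24% fell, and with so few genes no link between the patterns and a rise was tested. A match is a description of letters and not evidence of a bound site.

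**Figure D1:**
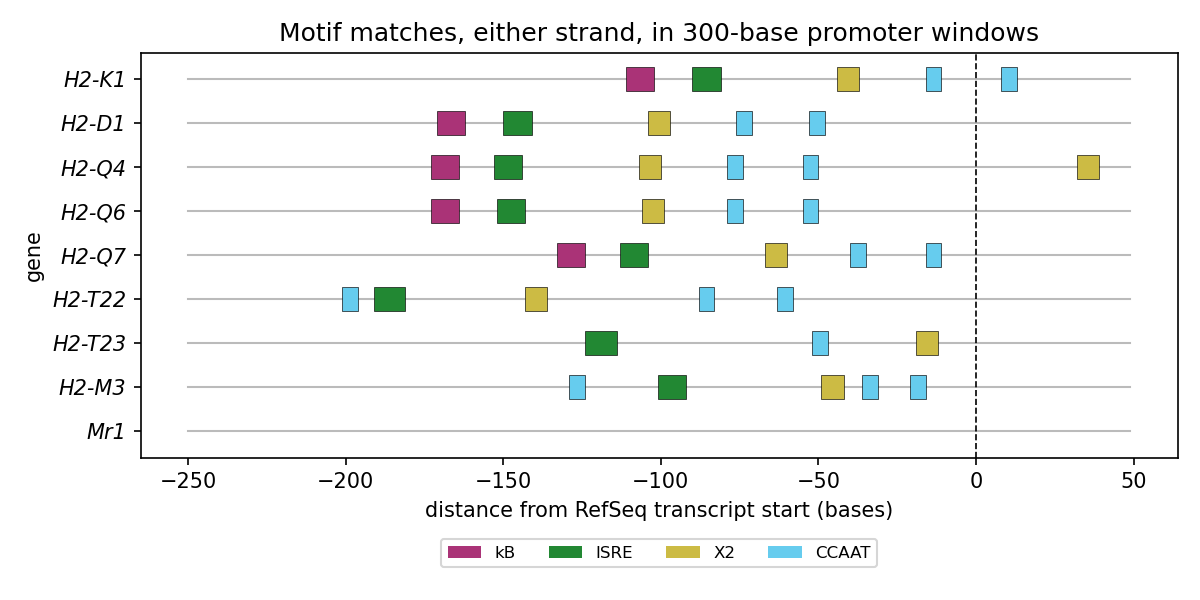
Motif matches in the promoter windows of 9 class I chain genes (rows) by distance from the RefSeq transcript start in bases. Boxes are matches on either strand to the kB, ISRE, X2 and CCAAT patterns; 5 genes carry all 4 kinds in the same order and Mr1 carries none.

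Library totals ran from 15921466 to 18987705 counts, and 3 counts in a library corresponded to 0.144 to 0.185 CPM (counts scaled to a common library size after TMM factors). The labelled cell type was checked against 10 macrophage markers, whose summed level was 22061 and 24671 CPM in M0 and 30642 and 30034 CPM in M1. Of these 10, 4 rose, 4 fell and 2 did not pass. Of 7 markers of T and NK cells only Cd4 passed the filter, and the summed level was 22.4 and 21.6 CPM in M0 and 4.80 and 5.23 CPM in M1, nearly all of it Cd4. Ncr1 and Gzma had no count in any library, and neither had Ms4a1 among 4 B cell markers, which summed to 5.08 and 4.46 CPM in M0 and 3.82 and 1.23 CPM in M1. The 6 markers of neutrophils and their precursors (4 fell, 1 rose) summed to 77.8 and 77.2 CPM in M0 and to 21.3 and 18.8 CPM in M1. The 5 of dendritic cells (2 fell, 1 rose) summed to 8.97 and 7.36 against 4.43 and 2.40 CPM, and the 4 of stroma (2 fell, 2 rose) to 697 and 674 against 442 and 499 CPM. Their part in the class I results was not tested. In bulk RNA, fewer cells of a type and less RNA per cell cannot be told apart.

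The comparison of M1 with M0 asked how class I transcripts differed between stimulated and unstimulated macrophages. IFN-γ and LPS were given only together, so their effects cannot be told apart here. Transcripts of 9 chains were higher in M1, and 1, Mr1, was lower (edgeR quasi-likelihood test, Benjamini-Hochberg adjusted p under 0.05 over the 12966 genes tested). Over all genes tested, 24.2% were called higher and 24% lower. Both M1 libraries lay above both M0 libraries for 9 members and below them for Mr1, against 37% above and 38% below among all genes tested (74.9% in either direction). The median log2 fold change of the members was 2.87, and that of all tested genes was -0.02. Together the 10 chains held 2360 and 2790 CPM in M0 replicates 1 and 2 and 12035 and 10758 CPM in M1 replicates 1 and 2. As a share of all counts they rose from 0.281% ± 0.0306 to 1.04% ± 0.0738 (SD, n = 2; every mean below is over the 2 libraries of a group).

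**Figure D2:**
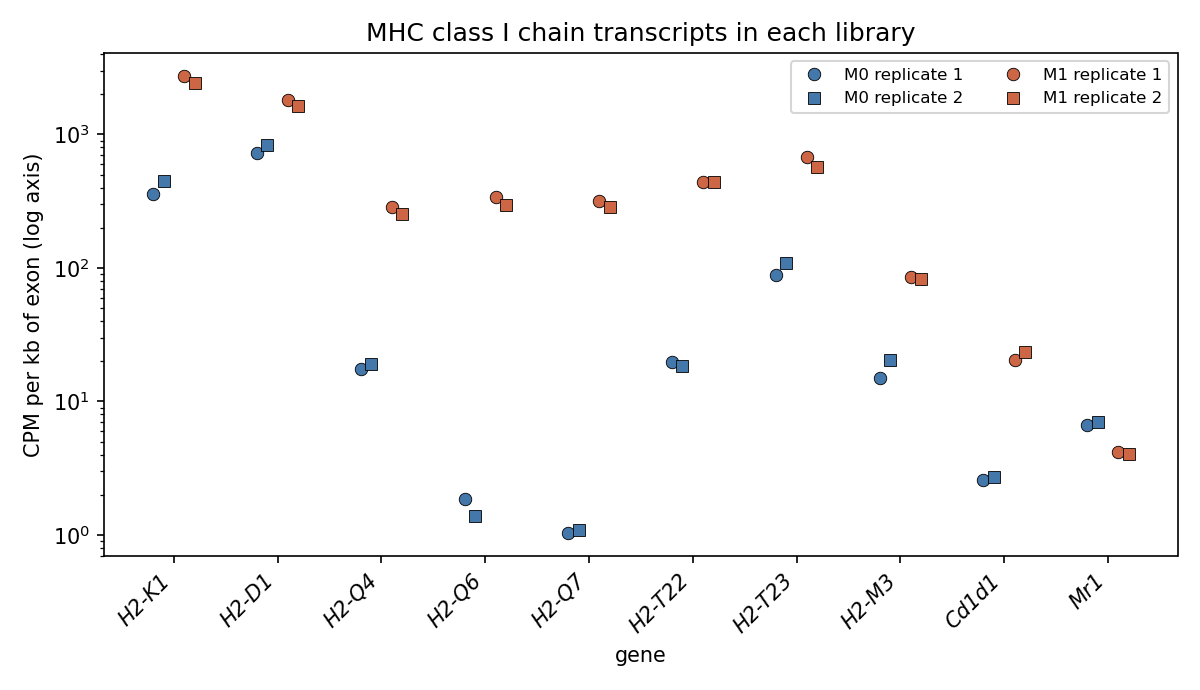
Level of each class I chain in each of the 4 libraries, in CPM per kb of annotated exon on a log axis. Circles are replicate 1 and squares replicate 2; 9 genes lie higher in both M1 libraries than in both M0 libraries, and Mr1 lies lower.

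The classical genes were the most abundant chains in both groups and exchanged places. H2-K1 (chromosome 17, 33996017 to 34000347, minus strand) had 595 and 746 CPM in the M0 libraries and 4541 and 3991 CPM in the M1 libraries. M0 replicate 2 was the higher of the unstimulated pair, and both M1 libraries lay far above it. The rise was 6.36-fold (log2 fold change 2.67 ± 0.13 SE, edgeR adjusted p = 1.93e-08). H2-D1 (chromosome 17, 35262730 to 35267499, plus strand) had 1520.04 and 1761 CPM in M0 and 3828 and 3450.03 CPM in M1. It had the smallest rise of the 9, 2.22-fold (1.15 ± 0.11, edgeR adjusted p = 4.71e-06), but that rise was still larger than those of 90.8% of all genes tested. Per length of exon, which allows levels of different genes to be compared, H2-D1 stood at 780.4 ± 80.9 CPM per kb in M0 against 405 ± 64.6 for H2-K1, with no overlap of libraries. In M1 H2-K1 led with 2578 ± 235 CPM per kb against 1731 ± 127 for H2-D1. The ratio of H2-D1 to H2-K1 was 2.01 and 1.86 in the M0 libraries and 0.664 and 0.681 in the M1 libraries. With 2 libraries against 2, an exact two-sided permutation test of such a ratio cannot go below p = 0.333, and no other test was run on the ratio. Counts of this pair are uncertain too, because their coding sequences were 88.65% identical. Of all stretches of 50 bases in the H2-K1 transcript, 8.79% also occurred in transcripts of other genes, 6.94% in H2-D1. For H2-D1 14.3% did, 5.31% in H2-K1. Of 100-base stretches, 0% of H2-K1 and 4.64% of H2-D1 did. Summed, the pair rose by a log2 fold change of 1.78 (edgeR adjusted p = 1.86e-07). Both promoters, printed above, carry the same 4 kinds of pattern at nearly the same spacing.

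The Q-series genes H2-Q6 and H2-Q7, members of the family that encodes Qa-2 antigens, had the largest rises. H2-Q7 (chromosome 17, 35439155 to 35443773, plus strand) had 33 and 29 counts, or 1.58 and 1.68 CPM, in M0 and 486 and 440.2 CPM in M1. H2-Q6 (chromosome 17, 35424850 to 35430055, plus strand) had 81 and 50 counts, or 3.88 and 2.90 CPM, in M0 and 705 and 612 CPM in M1. Both were near the bottom of the class I set without stimulation and in its middle with it. H2-Q7 rose 283-fold (log2 fold change 8.15 ± 0.15, edgeR adjusted p = 3.87e-11), the 42nd largest of 12966 fitted rises. H2-Q6 rose 192-fold (7.58 ± 0.16, edgeR adjusted p = 8.53e-11), the 67th largest. H2-Q4 (chromosome 17, 35379617 to 35385290, plus strand) had 31.2 and 34.0 CPM in M0 and 513 and 457 CPM in M1. Its rise of 14.9-fold (3.90 ± 0.12, edgeR adjusted p = 5.06e-10) was smaller than those of the other two Q genes and started from a higher M0 level. Counts of this trio are uncertain, because the genes share sequence. Coding sequences of H2-Q6 and H2-Q7 were 93.2% identical, those of H2-Q4 and H2-Q6 84.1%. Of all stretches of 50 bases in the H2-Q7 transcript, 40.2% also occurred in transcripts of other genes, 20.1% in H2-Q5 and 19.6% in H2-Q6, and of 100-base stretches 21.9%. For H2-Q6 these shares were 35.0% and 13.0%, and for H2-Q4 39.2% and 13.9%. The Q-series symbols H2-Q8 and H2-Q9 had no row in the count files and no entry in GENCODE M21. Sequence shared with them was therefore not counted under those symbols. Of the 50-base stretches of H2-Q4, however, 7.68% occurred in H2-Q6, 2.06% in H2-Q7 and 16.1% in Gm11131, and the stretches found elsewhere were spread over 145 genes. Stretches were matched on either strand, and H2-Q4 overlaps Gm11131 on the opposite strand over 21.03% of its exon bases. The stretches found in Gm11131 can thus come from that overlap and not from a copy elsewhere. Gm11131 had no row in the count files, and the strand setting of the counting is not given in the sources used here. Summed to a single feature, the trio rose by a log2 fold change of 5.42 (edgeR adjusted p = 8.98e-11).

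H2-T22 and H2-T23 are T-series genes. The product of H2-T22 is recognised by some γδ T cells, and that of H2-T23 is Qa-1, which shows class I signal peptides to the NKG2 receptors of natural killer cells. H2-T22 (chromosome 17, 36037128 to 36042747, minus strand) had 35.3 and 33.1 CPM in M0 and 797 and 790 CPM in M1. The ratio of M1 replicate 2 to M1 replicate 1, 0.990, was the closest to 1 among the members. It rose 23.2-fold (log2 fold change 4.53 ± 0.11, edgeR adjusted p = 1.37e-10). H2-T23 (chromosome 17, 36029773 to 36032855, minus strand) had 130 and 160 CPM in M0 and 992 and 844 CPM in M1. Its rise of 6.35-fold (2.67 ± 0.13, edgeR adjusted p = 2.22e-08) was of the size of that of H2-K1. Of the 50-base stretches in the H2-T22 transcript, 44.7% occurred elsewhere, 37.9% in H2-T10 alone. For H2-T23 29.8% did, spread over 172 genes, with 12.9% in H2-T-ps and 5.48% in Rab33b, a gene outside the class I lists. Of 100-base stretches, 14.2% of H2-T22 and 7.28% of H2-T23 occurred elsewhere. H2-T10 had a row of its own, with 3.02 and 3.65 CPM in M0 and 74.9 and 84.5 CPM in M1. Its log2 fold change was 4.58 ± 0.16 (edgeR adjusted p = 1.99e-09), and how far reads of H2-T10 and H2-T22 were exchanged was not tested. H2-T9 had no row and no entry in GENCODE M21, so sequence shared with it was not counted under that symbol. Summed, the pair rose by a log2 fold change of 3.26 (edgeR adjusted p = 1.65e-09).

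H2-M3 presents peptides that begin with formylmethionine, a mark of bacterial and mitochondrial proteins. Among the H2 members it starts furthest from H2-K1 (chromosome 17, 37270220 to 37274484, plus strand). It had 21.6 and 29.3 CPM in M0 and 123 and 119 CPM in M1. The M0 libraries were further apart than for any other chain, with replicate 2 at 1.36 times replicate 1, and both lay far below M1. The rise was 4.76-fold (log2 fold change 2.25 ± 0.14, edgeR adjusted p = 2.49e-07). Only 0.576% of its 50-base stretches occurred in another transcript, so its count is among the least exposed to near-identical copies.

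The class I-like genes outside the complex went opposite ways. Cd1d1 (chromosome 3, 86995834 to 86999441, minus strand) had 4.99 and 5.27 CPM in M0 and 39.8 and 45.8 CPM in M1. It rose 8.35-fold (log2 fold change 3.06 ± 0.17, edgeR adjusted p = 6.63e-08), more than either classical gene. Its near-identical neighbour Cd1d2 shares 25.8% of the 50-base stretches of the Cd1d1 transcript and had 1 count over the 4 libraries. Mr1 (chromosome 1, 155127277 to 155146814, minus strand) had 346 and 305 counts, or 16.6 and 17.7 CPM, in M0 and 172 and 166 counts, or 10.59 and 10.21 CPM, in M1. Both M1 libraries lay below both M0 libraries, and the fall was 1.65-fold (-0.72 ± 0.18, edgeR adjusted p = 0.00625). No 50-base stretch of the Mr1 transcript occurred in another annotated transcript. The call of Mr1 is lost without M0 replicate 1 (adjusted p = 0.0561, log2 fold change -0.76) and without M0 replicate 2 (adjusted p = 0.0719, -0.67), where the M1 pair alone gives the spread. The ratio of Cd1d1 to Mr1 per kb was 0.388 and 0.385 in M0 and 4.86 and 5.79 in M1.

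The make-up of the class I pool differed between groups by more than the replicates did. H2-K1 and H2-D1 together made up 87.8% ± 0.113 of the summed CPM per kb of the 10 chains in M0 and 67.6% ± 0.260 in M1. The share of H2-D1 was 58.6 and 57.1% in the M0 libraries and 27.1 and 27.3% in the M1 libraries. That of H2-K1 was 29.1 and 30.7% against 40.8 and 40.1%. The trio of Q genes went from 1.55% ± 0.130 to 13.9% ± 0.0552, and the T pair from 8.68% ± 0.0496 to 16.7% ± 0.175. H2-M3 kept a similar part, 1.30% ± 0.122 and 1.32% ± 0.0741, and Mr1 went from 0.507% ± 0.0390 to 0.0651% ± 0.00357. These shares rest on exon lengths of the GENCODE M21 basic set and on counts that near-identical copies can move between rows. The light chain gene B2m stood per kb at 1.29 and 1.35 times the sum of H2-K1 and H2-D1 in M0 and at 1.39 and 1.15 times in M1, with overlapping libraries. Against the sum of all 10 chains it stood at 1.13 and 1.19 times in M0 and at 0.942 and 0.773 times in M1, and the libraries did not overlap.

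**Figure D3:**
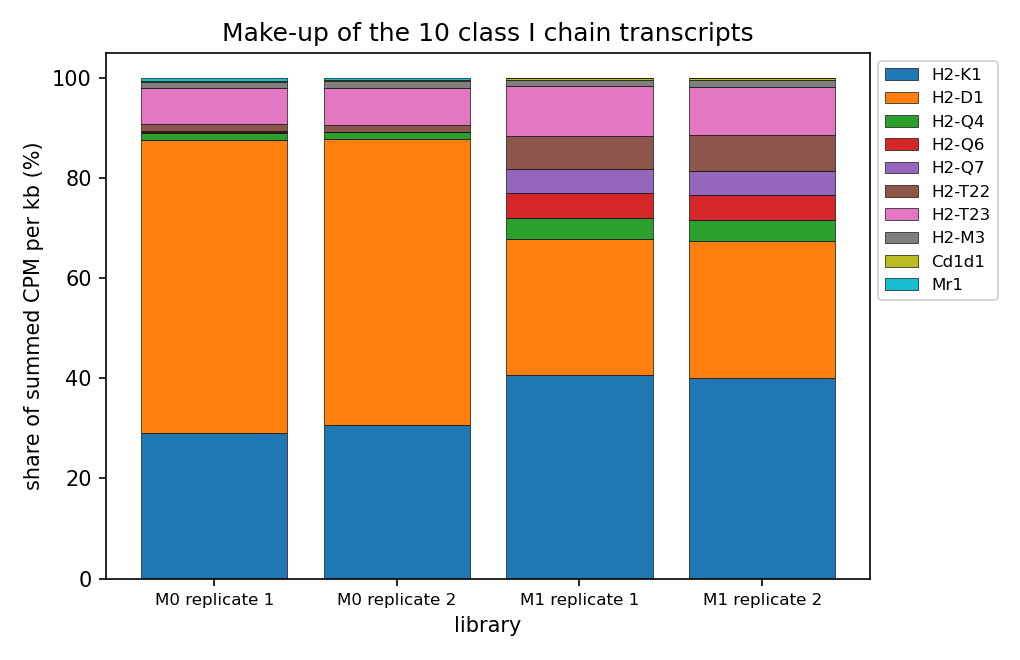
Share of each of the 10 chains in their summed CPM per kb (percent, stacked to 100) in each library. H2-D1 holds 57.1 to 58.6% in M0 and 27.1 to 27.3% in M1, while the Q-series and T-series bands widen.

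In M0 the order of levels per kb was H2-D1, H2-K1, H2-T23, H2-T22, H2-Q4, H2-M3, Mr1, Cd1d1, H2-Q6 and H2-Q7. H2-T22 and H2-Q4, and H2-Q4 and H2-M3, overlapped between libraries, and all other neighbours in that order were separate. In M1 the order was H2-K1, H2-D1, H2-T23, H2-T22, H2-Q6, H2-Q7, H2-Q4, H2-M3, Cd1d1 and Mr1, and of the neighbours H2-Q6 and H2-Q7 overlapped. H2-Q6 stood at 1.63 ± 0.334 CPM per kb in M0 and 316 ± 31.3 in M1, and H2-Q7 at 1.06 ± 0.0452 and 302 ± 21.3. Between replicates, 8 of the 10 chains were higher in M0 replicate 2 than in M0 replicate 1, and 9 were lower in M1 replicate 2 than in M1 replicate 1. These within-group ratios ran from 0.746 (H2-Q6) to 1.36 (H2-M3) in M0 and from 0.851 (H2-T23) to 1.15 (Cd1d1) in M1.

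All 9 genes of the list of light chain and peptide loading rose, with a median log2 fold change of 1.81. As a background for this list and the next, 24.2% of all genes tested were higher and 24% lower. B2m, the light chain, had 1197 and 1499.5 CPM in M0 and 5452 and 3997 CPM in M1 (1.81 ± 0.15, edgeR adjusted p = 2.37e-06). Tap1, a subunit of the transporter that brings peptides into the endoplasmic reticulum, had the largest rise of the list, from 35.7 ± 0.982 to 458 ± 2.55 CPM (3.68 ± 0.10, edgeR adjusted p = 3.66e-10). All 6 genes of the immunoproteasome and its activator rose (median 2.73). Psmb8, a catalytic subunit, led them from 31.4 ± 3.90 to 296 ± 27.5 CPM (3.24), and Psmb9 went from 21.97 ± 3.75 to 148 ± 9.59 CPM (2.75). The small rises of the chaperone gene Canx (0.35) and of the activator gene Psme3 (0.35) lost their calls with library totals, without M0 replicate 1 (adjusted p = 0.0984 and 0.107) and without M0 replicate 2 (adjusted p = 0.0801 and 0.176), and that of Psme3 also without M1 replicate 2 (adjusted p = 0.069) and with upper-quartile factors (adjusted p = 0.0659).

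Of 18 regulators of class I genes, 6 rose, 3 fell and 9 did not pass, with a median log2 fold change of 0.12. Among all genes tested 24.2% were higher and 24% lower. Nlrc5, the class I coactivator, rose from 30.4 ± 0.466 to 205 ± 27.1 CPM (2.75 ± 0.12, edgeR adjusted p = 1.13e-08) and Irf1 from 40.1 ± 2.32 to 104 ± 5.09 CPM (1.37 ± 0.11, edgeR adjusted p = 1.79e-06). Ciita, the class II coactivator of the same protein family as NLRC5, had the largest fall, from 13.0 ± 0.0723 to 1.45 ± 0.218 CPM (-3.17 ± 0.27, edgeR adjusted p = 3.03e-06). Rfx5, a subunit of the factor that binds beside the X2 site, did not pass, at 13.3 ± 0.334 and 14.9 ± 0.864 CPM (0.16 ± 0.17, edgeR adjusted p = 0.482). The call of Creb1, which fell, was lost without M0 replicate 1 (adjusted p = 0.0516).

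**Figure D4:**
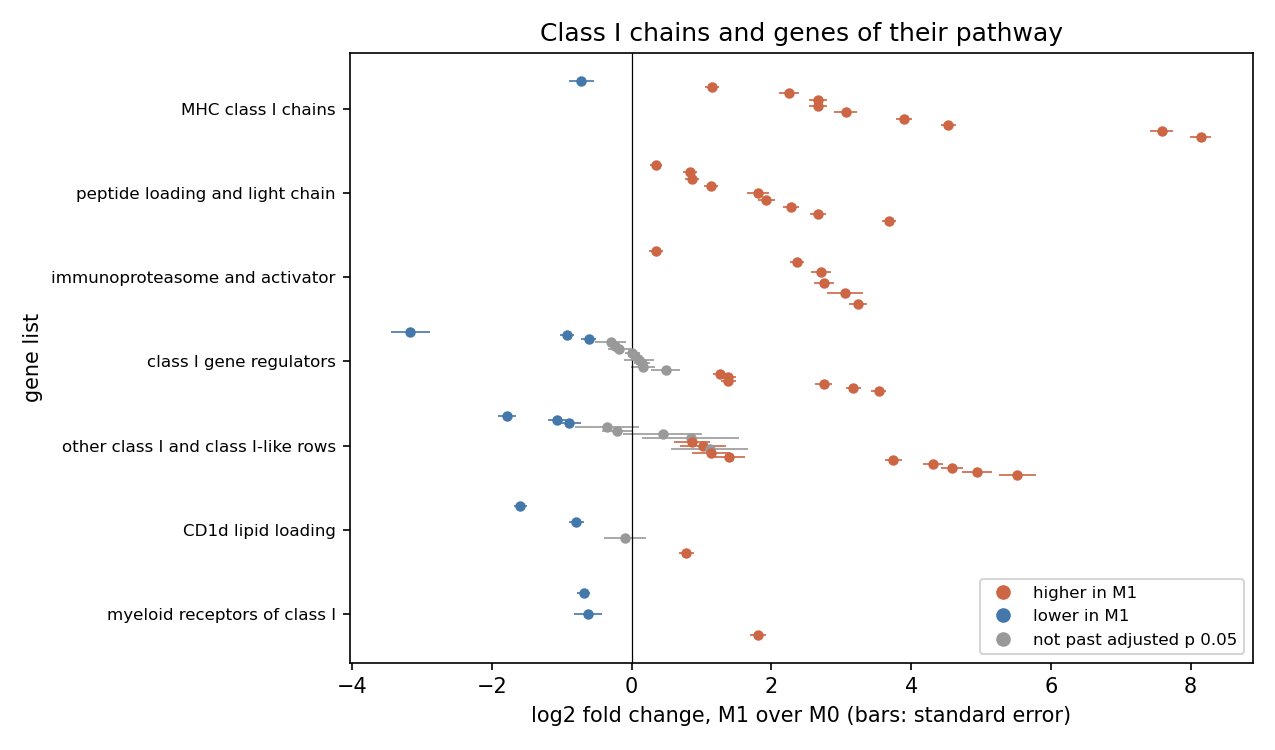
Log2 fold change of M1 over M0, with its standard error, for each tested gene of the 10 class I chains and of 6 lists around them (each list on its own row). Red points passed as higher, blue as lower, and grey did not pass; within the chains Mr1 is the point left of 0.

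Other class I and class I-like symbols were listed as well. Of 42, 24 had a row and 17 passed the filter, of which 9 rose, 3 fell and 5 did not pass (median log2 fold change 1.03). The shares over all genes tested were 24.2% higher and 24% lower. H2-M2 rose most, from 0.959 and 2.55 CPM in M0 to 74.8 and 81.6 CPM in M1 (5.52 ± 0.27, edgeR adjusted p = 2.23e-08), and it was the one gene of the list named above for a promoter with all 4 kinds of pattern. Fcgrt, the class I-like receptor that recycles immunoglobulin G, had the largest fall, from 84.0 ± 7.70 to 24.4 ± 1.99 CPM (-1.79 ± 0.13, edgeR adjusted p = 6.15e-07). Calls of 4 of these genes were lost when a library was left out. These were H2-Q1 and Gm11127 (without either M0 library, without M1 replicate 1 and M1 replicate 2 respectively, and also under library totals and DESeq2), Raet1a (without M0 replicate 2, adjusted p = 0.0698) and Ulbp1 (without M0 replicate 1, adjusted p = 0.0664).

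Of 4 genes that help load lipids onto CD1d, 1 rose, 2 fell and 1 did not pass (median log2 fold change -0.44). For this list and the next, the shares over all genes tested were 24.2% higher and 24% lower. Psap, the precursor of the saposins, fell from 7962 ± 288 to 2632 ± 39.2 CPM (-1.60 ± 0.09, edgeR adjusted p = 8.4e-08), and Gm2a, the GM2 activator, from 199.9 ± 5.69 to 115 ± 10.8 CPM (-0.79 ± 0.10, edgeR adjusted p = 8.12e-05). Npc2, a lysosomal sterol carrier, rose from 943 ± 61.2 to 1619 ± 199.9 CPM (0.78 ± 0.11, edgeR adjusted p = 0.000137). Mttp, the microsomal lipid transfer protein, did not pass, at 4.62 ± 0.310 and 4.34 ± 0.390 CPM (edgeR adjusted p = 0.822). Of 3 measured genes of myeloid receptor families in which some members bind class I, 1 rose and 2 fell. Listing a gene here does not mean that its own product binds class I. The inhibitory receptor gene Pirb rose from 201 ± 30.6 to 701 ± 20.6 CPM (1.81 ± 0.12, edgeR adjusted p = 2.5e-07). Lilrb4a fell from 429 ± 6.72 to 267 ± 4.33 CPM (-0.69 ± 0.09, edgeR adjusted p = 9.69e-05). Pira2, an activating member with close paralogs, fell from 12.9 ± 0.874 to 8.37 ± 0.693 CPM (-0.63 ± 0.20, edgeR adjusted p = 0.0246). It was not called under DESeq2 (adjusted p = 0.079), nor in edgeR fits that left out M0 replicate 1 (adjusted p = 0.155), M0 replicate 2 (adjusted p = 0.0895) or M1 replicate 1 (adjusted p = 0.0896).

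The 8 H2 genes span 3.27 Mb of chromosome 17, and position was not used to choose them. Of 138 other genes of the files that start between H2-K1 and H2-M3 in RefSeq, 102 were tested, and 41 (40.2%) were higher, 10 (9.8%) lower and 51 did not pass. Over all genes tested 24.2% were higher and 24% lower. The median log2 fold change was 0.39, and it was 0.25 over the 85 tested genes that are neither class I nor class II rows, of which 37.6% were higher and 9.41% lower. That set still holds Tap1, Tap2, Psmb8 and Psmb9 of the lists above. It also holds Gm9574, which shares 50-base stretches with several members, such as 2.95% of those of H2-T23. Each of these genes was higher. The largest rises were those of Cfb, a complement factor, and Lta, lymphotoxin alpha, neither of which had a count in M0. With M0 set at 3 counts over the group they were at least 187-fold and 10.55-fold higher. In GENCODE M21, Gm20547 covers 81.6% of the exon bases of Cfb on the same strand. Gm20547 had no row in the count files, and the annotation used for counting is not given. The effect of this overlap on the counts of Cfb is therefore uncertain. H2-Q5, annotated as a polymorphic pseudogene between H2-Q4 and H2-Q6, followed from 1.49 and 2.61 to 60.9 and 62.7 CPM (4.94 ± 0.21, edgeR adjusted p = 8.87e-09). The largest falls were those of Ddah2, an enzyme that degrades methylarginines (-3.06 ± 0.44, edgeR adjusted p = 0.000183), the complement gene C4a (-2.87) and the receptor subunit gene Gabbr1 (-2.37). The calls of C4a and Gabbr1 were lost without M0 replicate 1 (adjusted p = 0.146 and 0.184) and without M0 replicate 2 (adjusted p = 0.345 and 0.118). That of C4a was also lost without M1 replicate 1 (adjusted p = 0.232), and that of Gabbr1 without M1 replicate 2 (adjusted p = 0.162). Neither passed under DESeq2 (adjusted p = 0.103 and 0.0775), nor C4a without the low-count filter (adjusted p = 0.0737). The call of Lta was lost without either M0 library (adjusted p = 0.0576 and 0.0539), and without M1 replicate 1 Lta did not pass the filter. The 51 calls of these neighbours fell to 31 without M0 replicate 1 (27 higher, 4 lower) and to 33 without M0 replicate 2 (30 higher, 3 lower).

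**Figure D5:**
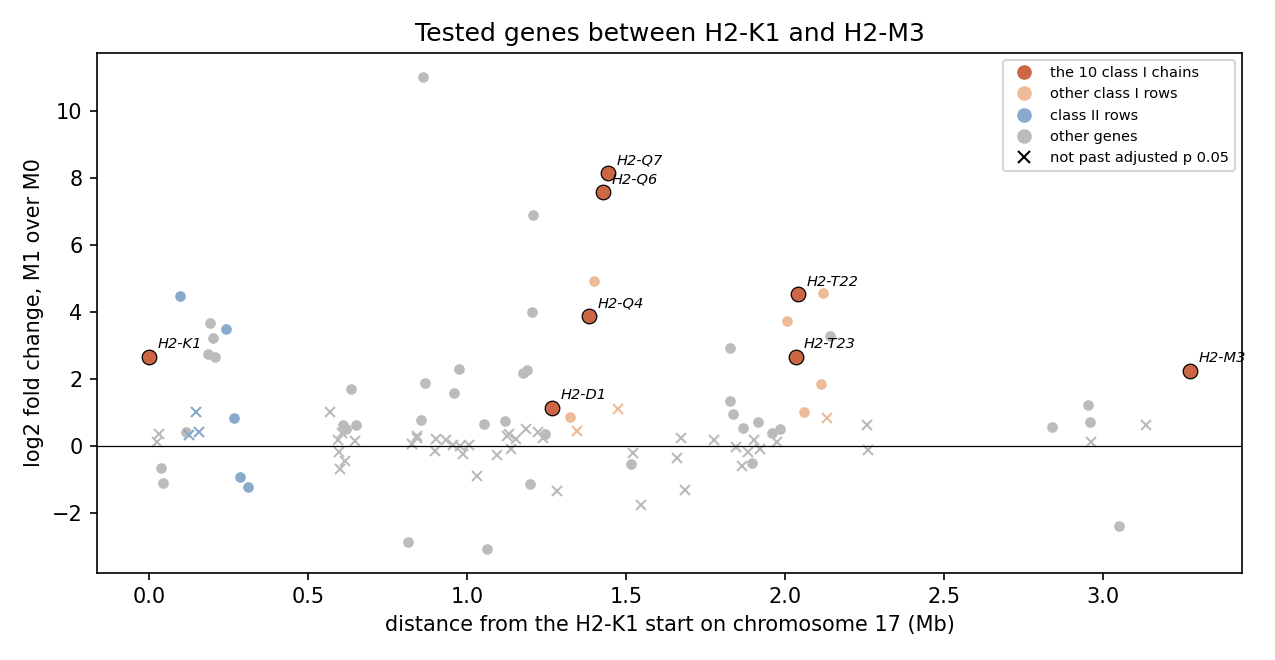
Log2 fold change of M1 over M0 for the tested genes from H2-K1 to H2-M3 by distance from the H2-K1 start in Mb. Red points are the class I chains of the complex, and crosses mark genes that did not pass the test; all 8 H2 chains lie above 0, between 1.15 and 8.15.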

How the data were processed

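Total RNA of 4 libraries was sequenced after removal of ribosomal RNA, per the labels' protocols. Each deposited file gives raw counts of reads per gene symbol. The submitters' processing notes name Subread 2.0.1, featureCounts and mm10 for the authors' own steps, and also DESeq2 1.30.1 and R 4.0.4. The annotation, strand setting, read length and treatment of reads with several matches are not given in the sources used here, so counts of near-identical class I genes are uncertain.

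Genes were filtered with filterByExpr (minimum count 10, minimum total 15), scaled by TMM and tested with the edgeR 4.0.16 quasi-likelihood test (group only, R 4.3.3), and p-values were adjusted by Benjamini-Hochberg over 12966 genes. The script was tested on simulated data. Standard errors are the log2 fold change over the root of F. CPM per kb uses exon lengths of GENCODE M21 (GRCm38). Shared sequence was counted as stretches of 50 and 100 bases of the transcript with the longest reading frame. A stretch was shared if it occurred, on either strand, in transcripts of other genes. Coding identity came from global alignment.

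The members and lists were chosen with earlier results of these data known. Named are all members, fixed genes (B2m, Tap1, Psmb8, Psmb9, Nlrc5, Ciita, Irf1 and Rfx5 among them), the largest called rise and fall of each list, lists of up to 5 genes in full, and the 3 largest rises and falls among chromosome 17 neighbours. Others are named only where a count of 5 or fewer, a lost call, shared sequence or an overlap of lists needs it. Some genes of these lists are not reported here by name. Alternatives were other scaling factors, DESeq2 1.42.0, limma-voom (limma 3.58.1), other filters, thinning, a replicate block, each library left out and summed class I rows.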

Additional observations from a re-analysis of the deposited data

How the results depend on the processing

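The 9 rises of class I chains kept their direction and call under every alternative in which the gene was a row of its own, and the fall of Mr1 kept its direction in all, with a call lost only without either M0 library. Log2 fold changes ranged from 0.90 to 1.26 for H2-D1, from 2.42 to 2.85 for H2-K1, from 7.90 to 8.23 for H2-Q7 and from -0.97 to -0.66 for Mr1. The number of chains called ran from 9 to 10 when a library was left out, and the calls in the pathway lists from 35 to 41. All genes called numbered 6248 with all libraries and 3154 to 5819 with a library left out, the lowest without M0 replicate 1 (3154) and without M0 replicate 2 (3381). Calls among chromosome 17 neighbours ran from 31 to 48 in those fits. Scaling by library totals shifted the median log2 fold change over all genes by -0.252, and 29.8% of the calls were then higher in M1, against 50.3% with TMM. Upper-quartile factors shifted it by -0.104 (41% higher). Under library totals all 9 rises and the fall of Mr1 were called. With the replicate block 5932 genes were called, 10 of them class I chains. The labels do not say that the numbers pair libraries, and deviations of same-numbered libraries had a correlation across genes of -0.113. With the numbers crossed, an alternative added after the data were seen, 7275 genes and 10 chains were called. All 26 H2 and related class I rows summed to a single feature, also added later, gave a log2 fold change of 2.19 (edgeR adjusted p = 2.75e-08). The depth limits the M0 levels of H2-Q6 and H2-Q7 most, which rest on 29 to 81 counts a library.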
